A study of Mus musculus with 10 samples.

Results

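The genes described here encode the zinc-dependent histone deacetylases other than Hdac3, the deacetylase that was deleted. They are Hdac1, Hdac2, Hdac4, Hdac5, Hdac6, Hdac7, Hdac8, Hdac9, Hdac10 and Hdac11. Each was taken as the probe set annotated to that symbol alone, and where a gene had more than 1 such probe set, the one with the highest mean over all lungs was used. All 10 genes were measured, among 17919 genes in all, and Hdac11 alone among the 10 had 2 probe sets.

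Whole lungs of 10 mouse embryos were profiled at E18.5, shortly before birth, with 1 microarray per lung. The knockout group held 5 lungs with the genotype Shhcre:Hdac3fl/fl, and the control group 5 lungs labelled Shhcre control; both groups were on a background of C57BL/6 and 129X1,129S6. Shh-Cre is a Cre recombinase driven from the Shh locus, which is active in the lung epithelium, so the mesenchymal, endothelial and blood cells in each sample should keep their Hdac3. The mothers were Hdac3 fl/fl and the fathers Hdac3 fl/+ with Shh-Cre, and the control label does not name the Hdac3 alleles. A control pup of that cross has at least 1 floxed allele. If the control lungs carry Shh-Cre, as their label reads, their epithelium would lose at least 1 copy of Hdac3 too. Nothing in the labels gives litter, sex or processing batch, and the replicates are called biological.

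Histone deacetylases remove acetyl groups from lysines of histones and of other proteins. Class I enzymes (Hdac1, Hdac2, Hdac3, Hdac8) are mostly nuclear, and Hdac1 and Hdac2 are the catalytic pair of the Sin3, NuRD and CoREST corepressor complexes, while Hdac3 acts in the NCoR/SMRT complexes. Class IIa enzymes (Hdac4, Hdac5, Hdac7, Hdac9) have little deacetylase activity of their own; they bind MEF2 transcription factors and the NCoR/SMRT complexes that hold Hdac3, and leave the nucleus when kinases phosphorylate them. Class IIb holds Hdac6, a cytoplasmic deacetylase of tubulin, and Hdac10, which acts on acetylated polyamines, and Hdac11 alone forms class IV and removes long fatty acyl groups from lysines. Loss of 1 class I enzyme is known to raise its closest relative in some tissues, as with Hdac1 and Hdac2. The comparison asks what levels the other family members had in lungs of the genotype Shhcre:Hdac3fl/fl. Hdac3 in the epithelium alone was not measured.

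Of the 10 genes, 0 passed limma's test of knockout against control lungs at an adjusted p under 0.05, against 3.12% of all genes. At an unadjusted p under 0.05 there were 3 of 10 (Hdac8, Hdac10 and Hdac11), against 13.5% of all genes. The 5 knockout and 5 control values did not overlap for 2 of 10, Hdac8 and Hdac11, both lower in knockout lungs, against 5.11% of all genes. In 7 of the 10 genes the mean was higher in knockout lungs and in 3 lower, with a median log2 change of 0.03, against 0.0042 over all genes, of which 52.0% were higher; the signs of Hdac2 and Hdac6 are not stable, as given below. The largest positive change was 0.14 (Hdac10) and the largest negative one -0.21 (Hdac11). With the replicate number as a block 0 of the 10 were called as well, against 4.72% of all genes. All 10 genes had log2 levels above 6.11, the 20th percentile of all values in the table, in each of the 10 lungs. The muscle gene Myod1 was above it in all 10 lungs too, so passing this mark does not show expression. Levels are log2 probe set values throughout; they depend on the probes, so they are compared between lungs and not between genes.

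**Figure D1:**
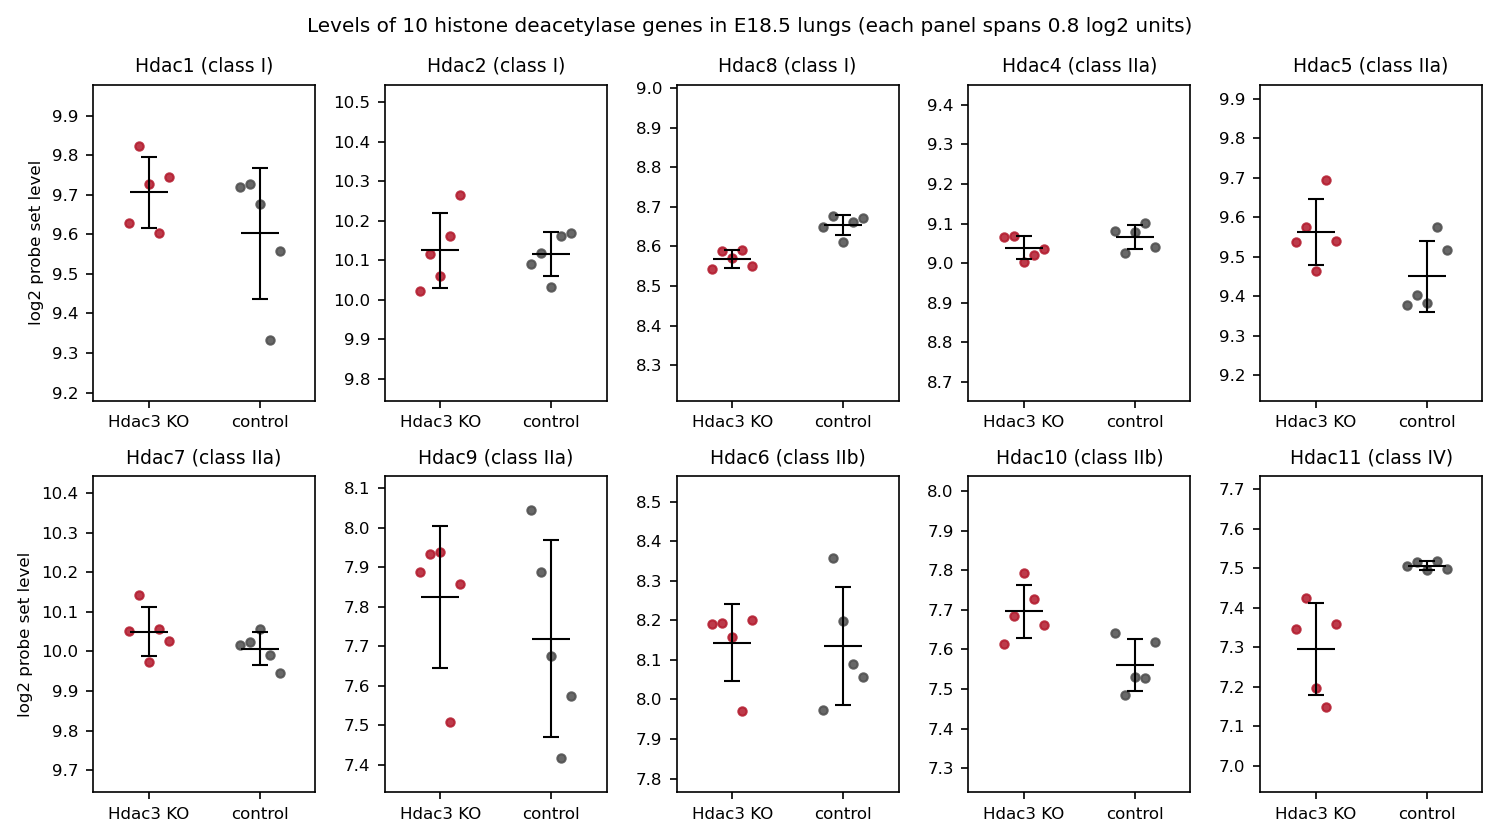
Log2 probe set level of each of the 10 deacetylase genes in 5 Hdac3 knockout lungs (red, left) and 5 control lungs (grey, right); points are lungs, the horizontal mark is the mean and the bar the SD. The groups overlap in every panel except Hdac8 and Hdac11, where all knockout lungs lie below all control lungs.

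Hdac3 itself, the targeted gene, had log2 levels of 10.57, 10.54, 10.61, 10.34 and 10.43 in knockout lungs, against 10.80, 10.90, 10.80, 10.67 and 10.90 in control lungs. This is a log2 change of -0.31 ± 0.07 (SE), to 80.4% of the control level (limma adjusted p = 0.0203). No knockout lung reached the lowest control lung, while the adjusted p was above 0.05 without control 2 (0.0526) or control 5 (0.0545), and was 0.130 without the 3 lungs whose sex-linked genes differ. A whole lung keeps the Hdac3 of its other cells, and in bulk tissue fewer cells of a type and less RNA per cell cannot be told apart. That holds for each gene below: a change confined to the epithelium would be diluted by every other cell type in the sample. To ask whether a family member changed differently from Hdac3, the Hdac3 value was subtracted from each gene within each lung. On that scale 9 of the 10 genes were higher in knockout lungs (limma adjusted p from 0.00125 for Hdac10 to 0.0189 for Hdac8), but so were 85% of all genes, so this share is close to the background. Hdac11 was the exception, at 0.10 (95% interval -0.08 to 0.28, adjusted p = 0.256), so the change of the probe set used was not told apart from that of Hdac3. With the mean of its probe sets, which differ as given below, Hdac11 was called higher on this scale too.

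Of the class I genes, Hdac1 had log2 levels of 9.63, 9.82, 9.73, 9.60 and 9.75 in knockout lungs, against 9.72, 9.73, 9.68, 9.33 and 9.56 in control lungs. The groups overlapped, and the lowest values of the control group were those of controls 4 and 5. The log2 change was 0.10 ± 0.08 (SE), or 107% of the control level with a 95% interval of 95.5% to 121% (limma adjusted p = 0.650). Without control 4 the change was 0.04. The mouse genome also holds a pseudogene listed as Hdac1-ps, and how far its RNA adds to the Hdac1 signal was not tested.

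Hdac2, the close relative that shares its complexes, had 10.02, 10.12, 10.06, 10.16 and 10.27 in knockout lungs, against 10.09, 10.12, 10.03, 10.16 and 10.17 in control lungs. Knockout 5 was highest and knockout 1 lowest of all 10 lungs, so the knockout range enclosed that of the controls. Hdac2 thus had a log2 change of 0.01 ± 0.05 (SE), 101% of the control level with an interval of 92.8% to 109% (adjusted p = 0.969), and its sign turned without control 3 (-0.010) or knockout 5 (-0.025). For Hdac2 a rise of over 10% in the array value lay outside this unadjusted interval, whereas for Hdac1 it lay inside. Array values processed as these were are known to compress fold changes, so a change in RNA may be larger.

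Hdac8, a class I enzyme that works without the large corepressor complexes and deacetylates the cohesin subunit Smc3, had 8.54, 8.59, 8.57, 8.59 and 8.55 in knockout lungs, against 8.65, 8.68, 8.61, 8.66 and 8.67 in control lungs. Each knockout lung was under the lowest control lung, within groups whose SDs were 0.02 and 0.03. The difference was small: a log2 change of -0.09 ± 0.04 (SE), 94.2% of the control level with an interval of 88.9% to 99.9%. The exact permutation test gave the smallest p it can give with 5 against 5 lungs (two-sided p = 0.00794), while limma, which draws such small variances towards those of other genes, gave an unadjusted p of 0.0474 and an adjusted p of 0.360. Since the groups did not overlap, any pairing of the lungs gives a lower knockout lung in each pair. In same-numbered pairs Hdac8 was lower by 0.04 to 0.12 on the log2 scale.

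Hdac6 and Hdac8 lie on the X chromosome, and the embryos' sex-linked genes differed. Xist, the RNA of the inactive X chromosome, stood at 11.47 in knockout 1 and 11.21 in control 1, and from 4.95 to 5.13 in the other lungs. Uty, a Y-linked gene, stood at 4.32 in knockout 1, 4.53 in knockout 5 and 4.39 in control 1, against 9.78 to 9.94 in the other lungs. Knockout 5 was thus low for both. Without these 3 lungs, an omission chosen after seeing the data, the log2 change was -0.07 for Hdac8 (adjusted p = 0.706) and -0.07 for Hdac6 (adjusted p = 0.866). On the autosomes it was -0.25 for Hdac11 (adjusted p = 0.166) and 0.20 for Hdac10 (adjusted p = 0.184), and 0 of the 10 genes were called.

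The window around 1 annotated transcript start of Hdac8 is shown because Hdac8 is 1 of the 2 genes whose groups separated. It runs from 250 bases before that start to 50 after it (RefSeq, GRCm38.p6, chrX:102505109-102505408, minus strand). The annotated Hdac8 gene reaches chrX:102505381, so most of this window lies inside the gene. Capitals mark matches, on either strand, to the letters searched in all windows here: CCAAT (the CCAAT box), GGGCGG (the GC box bound by Sp factors), TATAAA (the TATA box), forms of the MEF2 site (CTA, then 5 T, then AG or GG) and AGGTCA (letters bound by many nuclear receptors).
Hdac8: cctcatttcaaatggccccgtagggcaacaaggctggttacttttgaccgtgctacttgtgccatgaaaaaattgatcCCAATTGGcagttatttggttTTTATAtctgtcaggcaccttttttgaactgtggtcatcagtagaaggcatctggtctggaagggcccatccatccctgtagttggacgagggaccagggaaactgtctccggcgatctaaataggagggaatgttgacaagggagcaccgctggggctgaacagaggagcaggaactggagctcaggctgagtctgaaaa
The Hdac8 window holds CCAAT on both strands, overlapping as CCAATTGG, and TATAAA in reverse. Among all 32851 windows of this length, 37.4% hold CCAAT, 35.7% GGGCGG, 13.62% TATAAA and 16.3% AGGTCA, so such matches are common. The Hdac8 window has 6 CpG dinucleotides, against a median of 7 over all windows.

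Among class IIa genes, Hdac5 had the change nearest to the threshold. Its log2 levels were 9.54, 9.58, 9.46, 9.69 and 9.54 in knockout lungs, against 9.38, 9.40, 9.38, 9.57 and 9.52 in control lungs. Every knockout lung lay above the control mean and above the control of the same number, by 0.02 to 0.17, although the groups overlapped. The log2 change was 0.11 ± 0.06 (SE), 108% of the control level with an interval of 99.0% to 118% (limma adjusted p = 0.451; adjusted p = 0.246 with the replicate block). Hdac5 is known as a class IIa enzyme of striated muscle, neurons and endothelium that is exported when phosphorylated by calcium-dependent kinases.

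Hdac4, best known for restraining cartilage growth, varied least in this class. It had 9.07, 9.07, 9.002, 9.02 and 9.04 in knockout lungs, against 9.08, 9.03, 9.08, 9.10 and 9.04 in control lungs. The groups overlapped, with a log2 change of -0.03 ± 0.04 (SE) and an interval of 92.5% to 104% of the control level (adjusted p = 0.858).

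Hdac7, needed in endothelial cells for vessel integrity, had 10.05, 10.14, 9.97, 10.06 and 10.03 in knockout lungs, against 10.02, 10.02, 10.06, 9.99 and 9.95 in control lungs. Its log2 change was 0.04 ± 0.05 (SE), with an interval of 96.2% to 110% of the control level (adjusted p = 0.770). Hdac7 and Hdac4 thus had the narrowest intervals of the class, with upper bounds of 110% and 104% of the control level.

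Hdac9, which also gives rise to a short form that lacks the catalytic part and represses MEF2 targets, varied most. Its log2 levels were 7.89, 7.93, 7.94, 7.51 and 7.86 in knockout lungs, against 8.04, 7.89, 7.68, 7.42 and 7.57 in control lungs. Lung 4 was lowest in both groups, and the control lungs spread over 0.63 log2 units. The log2 change was 0.11 ± 0.12 (SE), 108% of the control level, and its interval of 90.1% to 129% was the widest of the 10 genes (adjusted p = 0.789). Without control 4 the change of Hdac9 was 0.03. Probe positions were not used here, so the short and long forms of Hdac9 were not separated.

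Several of the genes also varied between lungs numbered 1 to 3 and lungs numbered 4 and 5. The mean of numbers 1 to 3 minus that of 4 and 5 was largest in size for Hdac9 (0.30), Hdac1 (0.16) and Hdac5 (-0.12), which are shown, and nearly as large as for Hdac5 in Hdac2 (-0.12), Hdac3 (0.12) and Hdac6 (0.10). These sets separate on the second principal component of all genes (22.1% of the variance), and the labels do not explain the numbers. Hdac9 averaged 7.92 in knockouts 1 to 3 and 7.68 in knockouts 4 and 5, and 7.87 and 7.50 in the controls of those numbers. Hdac1 averaged 9.73 and 9.67 in these knockout sets, and 9.71 and 9.45 in the control sets. Hdac5 ran the other way, at 9.53 and 9.62 in the knockout sets, and 9.39 and 9.55 in the control sets. The sets were seen in the data and not in the labels, so these means are a description. Within numbers 1 to 3 the knockout change was 0.02 for Hdac1, 0.05 for Hdac9 and 0.14 for Hdac5, and within numbers 4 and 5 it was 0.23, 0.19 and 0.07 for the same genes in that order. None of these 6 values passed (limma adjusted p from 0.315 to 0.942). A test of whether the knockout change differed between the sets gave limma adjusted p = 0.998 for each of the 3 genes. The sets and the 3 genes were picked from these values and each set holds few lungs. These fits therefore cannot decide whether the change differed between the sets.

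**Figure D2:**
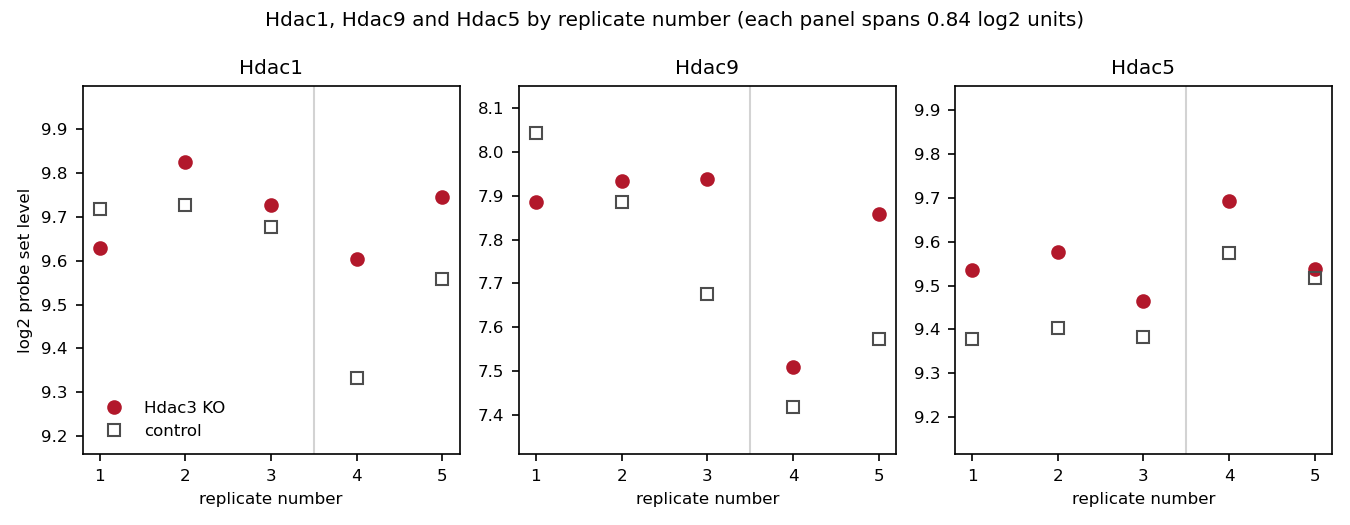
Log2 probe set level of Hdac1, Hdac9 and Hdac5 by replicate number, for Hdac3 knockout lungs (red circles) and control lungs (open squares); the vertical line parts numbers 1 to 3 from 4 and 5. Lung 4 is lowest in both groups for Hdac1 and Hdac9, and highest in both groups for Hdac5.

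The starts of Hdac5 and Hdac9 are shown because class IIa enzymes restrain MEF2 factors and these windows hold letters of the MEF2 site. The Hdac5 window is chr11:102230123-102230422 and the Hdac9 window, around 1 of 2 starts, is chr12:34528840-34529139 (RefSeq, GRCm38.p6, both on the minus strand; capitals as above).
Hdac5: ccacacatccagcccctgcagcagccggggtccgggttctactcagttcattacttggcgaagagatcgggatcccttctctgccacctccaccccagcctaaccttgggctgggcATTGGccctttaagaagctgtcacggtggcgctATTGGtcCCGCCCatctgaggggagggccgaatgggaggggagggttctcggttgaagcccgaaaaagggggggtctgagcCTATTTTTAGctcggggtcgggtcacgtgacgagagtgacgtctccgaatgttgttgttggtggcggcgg
Hdac9: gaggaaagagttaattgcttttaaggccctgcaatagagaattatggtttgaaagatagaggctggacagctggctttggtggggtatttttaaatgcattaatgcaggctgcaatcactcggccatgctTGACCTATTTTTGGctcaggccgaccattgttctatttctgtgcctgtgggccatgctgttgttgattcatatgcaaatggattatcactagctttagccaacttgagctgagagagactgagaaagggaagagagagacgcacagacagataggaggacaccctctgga
Hdac5 holds the MEF2 form ending in AG, which 0.110% of all windows hold on either strand, along with 2 matches to CCAAT and 1 to GGGCGG in reverse. Hdac9 holds the form ending in GG, found in 0.0761% of all windows, which overlaps a reverse match to AGGTCA by 2 bases. A MEF2 form stands in 2 of the 8 class IIa windows, against 0 of the 4 windows of other family members and 61 of all 32851 windows. Of those 8 windows 4 belong to Hdac7, and 2 of these overlap. No other form of the MEF2 site was searched, and the difference between these shares was not tested. Windows were at hand for 8 of the 10 genes, not for Hdac1 and Hdac10. A match describes the letters in the window and not binding.

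Of the class IIb genes, Hdac10 had the largest positive change of the family. Its log2 levels were 7.61, 7.69, 7.79, 7.73 and 7.66 in knockout lungs, against 7.64, 7.48, 7.53, 7.53 and 7.62 in control lungs. All 5 knockout lungs lay above the control mean, while the lowest knockout lung lay below the 2 highest control lungs. For Hdac10 the log2 change was 0.14 ± 0.05 (SE), 110% of the control level with an interval of 102% to 119%; it did not pass adjustment (unadjusted limma p = 0.0193, adjusted p = 0.226, exact permutation p = 0.0238). In same-numbered pairs it was higher in 4 of 5, by up to 0.26, and pair 1 stood at -0.03.

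Hdac6, the tubulin deacetylase of the cytoplasm and cilia, had 8.19, 8.19, 8.16, 7.97 and 8.20 in knockout lungs, against 7.97, 8.36, 8.20, 8.09 and 8.06 in control lungs. The control lungs spanned 0.38 log2 units and held both the highest value and 1 of the 2 lowest. For Hdac6 the log2 change was 0.01 ± 0.07 (SE), with an interval of 89.9% to 112% of the control level (adjusted p = 0.984). Its sign turned with quantile normalization between arrays (-0.00036) and without any 1 of 6 lungs (down to -0.033), so no direction is given for Hdac6.

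Hdac11, the class IV enzyme, had the largest change of the 10 genes. Its log2 levels were 7.35, 7.42, 7.20, 7.15 and 7.36 in knockout lungs, against 7.51, 7.52, 7.49, 7.52 and 7.50 in control lungs. The highest knockout lung stayed under the lowest control lung. The log2 change was -0.21 ± 0.06 (SE), 86.4% of the control level with an interval of 79.3% to 94.0% (unadjusted limma p = 0.00275, adjusted p = 0.0718; exact permutation p = 0.00794, the smallest possible here). It was called without knockout 2 (-0.24, adjusted p = 0.0476) and with quantile normalization (-0.22, adjusted p = 0.0485). The control lungs spanned 0.02 log2 units and the knockout lungs 0.28; only 0.0391% of all genes had a smaller control SD than the 0.011 of Hdac11, whereas 58.4% had a smaller knockout SD than its 0.12.

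A second probe set annotated to Hdac11 alone did not show the difference. It had 7.06, 6.90, 7.07, 6.91 and 7.01 in knockout lungs, against 6.94, 6.94, 6.88, 7.16 and 7.09 in control lungs, with overlapping groups. Its log2 change was -0.01 ± 0.06 (SE, limma adjusted p = 0.977 with every probe set as its own row). The change of the first probe set minus that of the second, taken within lungs, was -0.20 (exact permutation p = 0.0397, two-sided, a comparison chosen after seeing the values). With their mean as the Hdac11 value the log2 change was -0.11 (adjusted p = 0.354). Which Hdac11 transcripts each probe set reads was not tested.

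**Figure D3:**
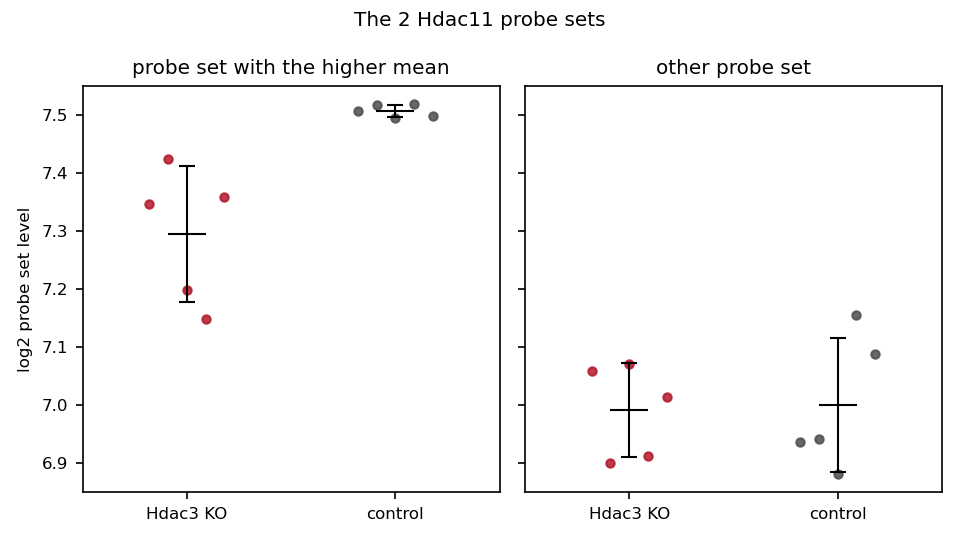
Log2 probe set levels of the 2 Hdac11 probe sets in 5 Hdac3 knockout lungs (red, left in each panel) and 5 control lungs (grey, right), with mean and SD. In the left panel all knockout lungs lie below the controls, which span 0.02; in the right panel the groups overlap.

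The window around 1 annotated transcript start of Hdac11 is shown because Hdac11 had the largest change in the family (RefSeq, GRCm38.p6, chr6:91156565-91156864, plus strand, capitals as above). The annotated Hdac11 gene begins at chr6:91156670, so most of this window lies inside the gene.
Hdac11: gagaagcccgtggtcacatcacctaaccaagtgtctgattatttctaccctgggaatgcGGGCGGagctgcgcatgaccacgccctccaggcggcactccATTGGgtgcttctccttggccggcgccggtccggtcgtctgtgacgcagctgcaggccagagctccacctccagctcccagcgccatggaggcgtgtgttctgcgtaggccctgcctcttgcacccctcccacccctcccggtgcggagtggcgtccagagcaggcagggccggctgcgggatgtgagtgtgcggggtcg
The Hdac11 window holds 1 GGGCGG and 1 reverse match to CCAAT, with 22 CpG dinucleotides and a GC share of 66.7%, against medians of 7 and 52.7% over all windows. It held no MEF2 form, TATAAA or AGGTCA.

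The genes whose levels followed Hdac11 most closely over the 10 lungs, among named genes outside the family, were Tmem132d, Caps2 and Gcdh. Their Pearson r with Hdac11 was 0.959, 0.950 and 0.935, as a description over 10 lungs that share the group difference. Taken on deviations from group means, r was 0.869, 0.866 and 0.807. The genes were picked for the highest r over these lungs, so high values were built into the choice. Hdac11 had an SD of 0.011 in control lungs and 0.12 in knockout lungs, so its deviations lay mostly in the knockout lungs. Only the Hdac11 probe set of higher mean was used, and r with the other probe set is not given here. Tmem132d, a membrane protein gene, had a log2 change of -0.24 (limma adjusted p = 0.0333), Caps2, a calcium-binding protein gene, -0.32 (0.0586) and Gcdh, the mitochondrial glutaryl-CoA dehydrogenase, -0.16 (0.119).

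**Figure D4:**
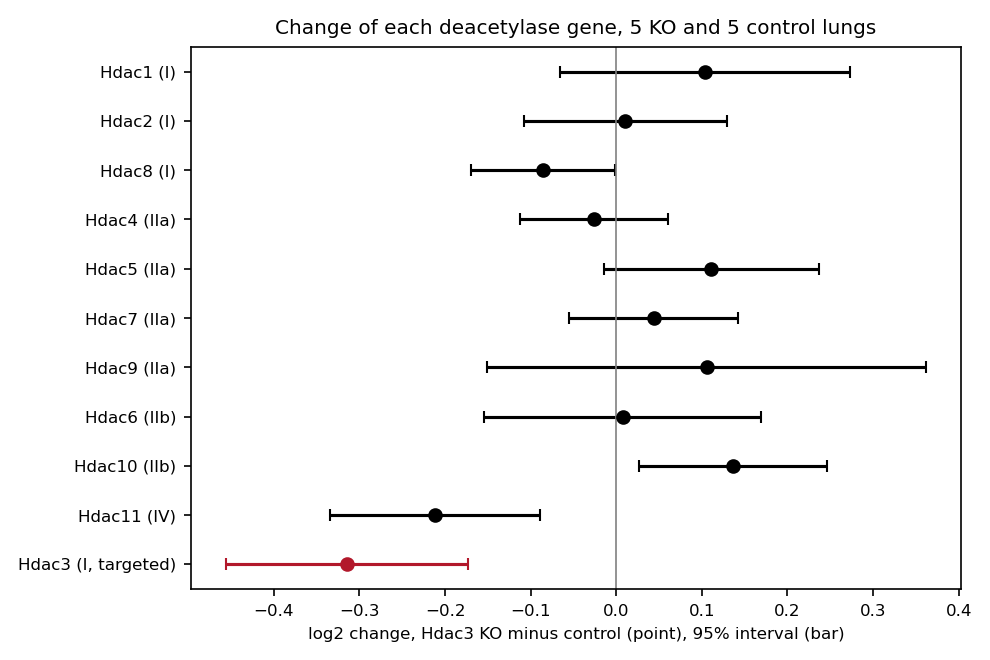
Log2 change, Hdac3 knockout minus control, of the 10 deacetylase genes by class and of Hdac3 (red), with 95% intervals from limma over 5 knockout and 5 control lungs. The intervals of Hdac8, Hdac10 and Hdac11 leave out 0 before adjustment, and only that of Hdac3 belongs to a gene called after it.

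Read against the question of a rise in other family members, the intervals bound the change in whole-lung array values. The upper bounds were highest for Hdac9 (129% of the control level), Hdac1 (121%), Hdac10 (119%) and Hdac5 (118%), and lowest for Hdac11 (94.0%), Hdac8 (99.9%) and Hdac4 (104%). The Hdac11 bound belongs to the probe set used here, and that of the second probe set was 109%. The intervals are unadjusted and describe the whole lung, not its epithelium. They bound array values, which are known to compress fold changes, and not the RNA change itself.

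Markers of cell types moved with the groups in part. Of 10 epithelial markers 2 were called higher, Krt8 (log2 change 0.74) and Cldn6 (0.84), and the mean level of the list ran from 11.17 to 11.23 in knockout lungs, against 10.98 to 11.06 in control lungs. These 2 genes carried that difference. The list had 6 genes higher and 4 lower, with a median log2 change of 0.02. The mean of the other 8 markers ran from 11.45 to 11.48 in knockout lungs, against 11.41 to 11.47 in control lungs. Among those 8, Cdh1 was higher in knockout lungs without overlap (0.18, limma adjusted p = 0.0517). Means of 7 leukocyte markers ran from 8.42 to 8.66 in knockout lungs, against 8.64 to 8.80 in control lungs, and those of 6 smooth muscle and pericyte markers from 9.56 to 9.73 in knockout lungs, against 9.73 to 9.84 in control lungs. All 7 leukocyte markers and all 6 smooth muscle and pericyte markers had a lower mean in knockout lungs. For 10 endothelial markers the means ran from 10.75 to 10.86 in knockout lungs, against 10.77 to 10.85 in control lungs, and for 8 fibroblast markers from 10.54 to 10.78 in knockout lungs, against 10.64 to 10.83 in control lungs. Of the endothelial markers 5 were higher and 5 lower in knockout lungs, and of the fibroblast markers 2 were higher and 6 lower. By limma 0 of these non-epithelial markers were called, nor any of 3 erythroid and 6 neuronal or muscle markers. With the replicate block Laptm5 (-0.27, adjusted p = 0.0227), Cnn1 (-0.41, 0.0275) and Slc4a1 (0.22, 0.0461) were called. The epithelial marker Nkx2-1 stood at 10.97 in knockout and 11.01 in control lungs, as lung tissue has. The part of cell makeup in the changes of Hdac8, Hdac10 and Hdac11 was not tested.

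Partners of the family were described through 11 lists holding 151 measured genes. Of these genes, 2 were called higher (1.54% of all genes were) and 0 lower (1.58%), and their median log2 change was 0.01, against 0.0042 over all genes. With the replicate block 7 were called higher and 3 lower, where 2.28% and 2.44% of all genes were. At an unadjusted p under 0.05 there were 18, against 13.5% of all genes.

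The class IIa list, of MEF2 factors, kinases that phosphorylate class IIa enzymes, the 14-3-3 proteins that bind them afterwards and a few further partners and targets, had 26 measured members, of which 1 rose and 0 fell (median 0.01). Camk2d, a calcium/calmodulin-dependent kinase that acts on Hdac4, had 9.33, 9.45, 9.41, 9.45 and 9.36 in knockout lungs, against 9.03, 9.29, 9.06, 9.23 and 9.16 in control lungs. The groups did not overlap (log2 change 0.25 ± 0.06 SE, limma adjusted p = 0.0354). That call ended without control 1, 3 or 5 or knockout 1, 2, 3 or 4, at adjusted p from 0.0502 to 0.0972. With the replicate block 4 members rose, which were Camk2d, Mef2d (0.18, adjusted p = 0.0470), the kinase Sik1 (0.30, 0.00733) and the nuclear receptor Nr4a1 (0.26, 0.0230), and the repressor Bcl6 fell by 0.30 (0.0470). Without the block the last 4 had adjusted p from 0.114 to 0.606.

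Of 12 measured genes of polyamine metabolism, the pathway of the Hdac10 substrates, 1 rose and 0 fell (median 0.04). Azin1, which spares ornithine decarboxylase by binding its antizyme, had 9.29, 9.52, 9.47, 9.40 and 9.45 in knockout lungs, against 8.90, 8.99, 9.04, 9.10 and 9.19 in control lungs. The groups did not overlap, with a log2 change of 0.38 ± 0.06 (SE, limma adjusted p = 0.00520), and the call was kept without each single lung. With the block the antizyme Oaz2 rose as well (0.19, adjusted p = 0.0435; 0.104 without it) and the arginase Arg1 fell by 0.35 (0.0464; 0.0629 without it).

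In mouse lung endoderm, loss of Hdac1 and Hdac2 is known to lower Sox2, the airway transcription factor, and to raise Bmp4 and Rb1. By limma 0 of the 7 measured genes of that list passed (1 had an unadjusted p under 0.05), with a median log2 change of -0.11. Sox2 had 6.78, 6.95, 7.12, 7.55 and 7.56 in knockout lungs, against 7.86, 7.60, 7.64, 7.82 and 8.24 in control lungs, without overlap. Its log2 change was -0.64 ± 0.16 (SE, adjusted p = 0.0553), and it was called with the replicate block (adjusted p = 0.00936), with array weights (0.0165), with numbers 1 to 3 against 4 and 5 as a block (0.00248), with only numbers 1 to 3 (-0.75, 0.00733), without knockout 4 (-0.73, 0.0385) and without knockout 5 (-0.73, 0.0262); without any other lung it was 0.0631 to 0.135. Bmp4 stood at -0.21 and Rb1 at -0.11 (adjusted p = 0.692 and 0.409). The cell cycle inhibitor Cdkn1a rose with the block (0.43, adjusted p = 0.00265), and had adjusted p = 0.495 without it.

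In the other lists 0 genes were called, with and without the block. In the complexes that hold Hdac1 and Hdac2 members lay on both sides of 0. Higher means stood in 6 of 15 Sin3 genes (median -0.02), 9 of 13 NuRD genes (0.05) and 7 of 16 CoREST, MiDAC and MIER genes (-0.0013), with 0, 0 and 2 genes at an unadjusted limma p under 0.05. The nearest to a call were Arid4b, a Sin3 subunit (0.08, adjusted p = 0.526), Gatad2a of NuRD (0.14, 0.371) and Mideas of MiDAC (0.27, 0.185). Without knockout 5 Mideas was called (0.35, adjusted p = 0.0340), as was the acetyl-lysine reader Brd2 (0.22, 0.0377), which stood at 0.19 with all lungs (adjusted p = 0.0830, groups without overlap) and was picked after its values were seen.

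The sirtuins, the NAD-dependent deacetylases, had a median of -0.01 over 7 genes, and Sirt7 stood at 0.13 (adjusted p = 0.279). Over 16 lysine acetyltransferases the median was -0.02, and Ncoa1, a nuclear receptor coactivator, was nearest to the threshold (-0.18, adjusted p = 0.0725, groups without overlap). Over 16 acetyl-lysine readers the median was 0.0026, and Mllt3, a YEATS domain reader, stood at -0.18 (adjusted p = 0.0762, groups without overlap). Of 10 Hdac6 substrates and partners the median was 0.07 and Sqstm1, the autophagy receptor, stood at 0.12 (0.367). Of 13 cohesin genes the median was 0.01, Wapl, which releases cohesin, stood at 0.10 (0.328), and Smc3, the Hdac8 substrate, at -0.01 (0.970). These 5 lists had 1, 1, 4, 1 and 1 genes at an unadjusted p under 0.05, which 13.5% of all genes had.

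**Figure D5:**
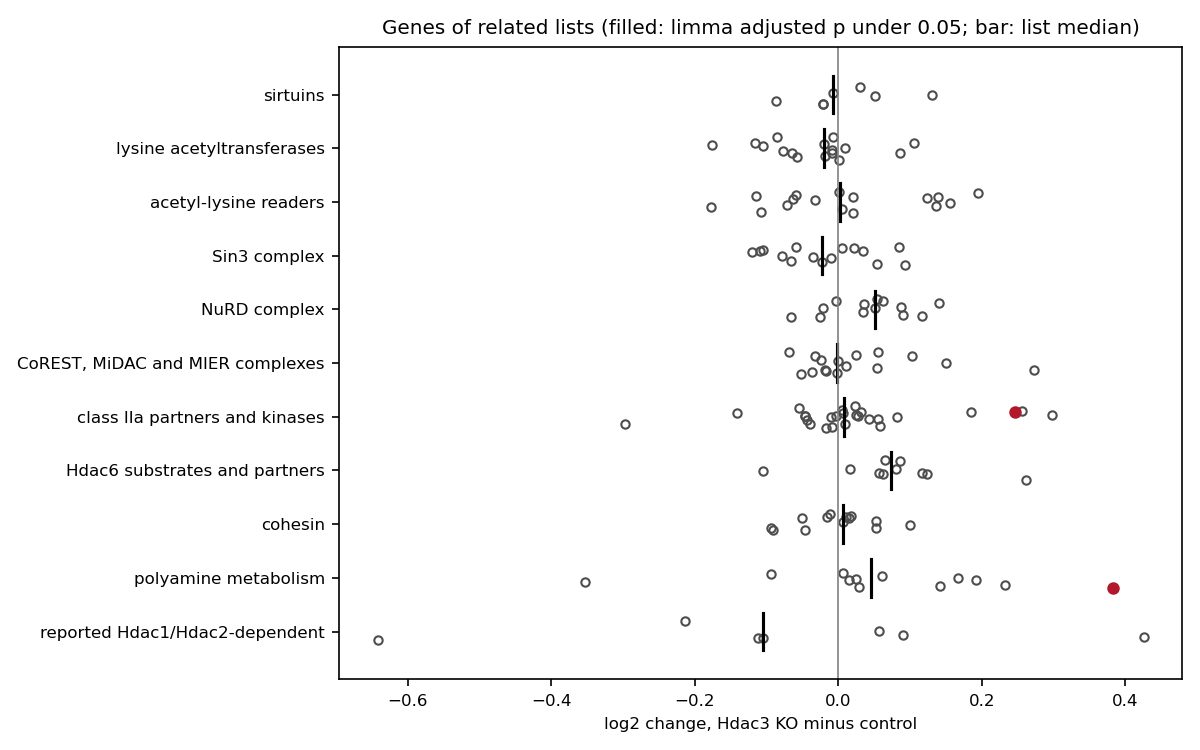
Log2 change, Hdac3 knockout minus control, of each measured gene in 11 lists of deacetylase partners, substrates, opposing enzymes and reported targets; each point is a gene, filled where limma's adjusted p is under 0.05, and the bar is the list median. Only Camk2d and Azin1 are filled, and the lowest point is Sox2 at -0.64.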

How the data were processed

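The deposited values are log2 probe set levels of 10 whole mouse lungs, 1 array each, made from 100 ng of total RNA primed with poly(T), per the labels' protocols. The submitters' processing notes name oligo, RMA and limma without versions; RMA corrects background, normalizes arrays and summarises probes, which is known to compress fold changes. The sources used here give neither genome build nor row filter. No scanner files were used. The table held 24888 probe sets, of which 18922 had 1 gene symbol in the platform annotation, 1343 several and 4623 none; 18790 of the single-symbol sets were found in RefSeq's table of mouse genes (GRCm38.p6).

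Each gene was represented by its probe set of highest mean, giving 17919 genes. Knockout and control were compared with limma 3.58.1 in R 4.3.3 (lmFit and eBayes, two-sided, Benjamini-Hochberg over all genes, threshold 0.05), and adjusted p values are limma's. Intervals cover 95%. Single genes were also tested by exact permutation over 252 assignments, unadjusted. The number of lungs limits precision; the median SE of a log2 change was 0.066. The fit was also run on simulated data with independent errors and added changes larger than that of any member. That run does not show how often changes as small as the members' would be called.

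The members and lists were chosen with earlier results of these data known. All members and Hdac3 are named. From each list the called genes were named, up to the 4 of smallest p, or the 1 of smallest p where none was called; block calls, Brd2, Smc3, Bmp4, Rb1 and Nkx2-1 were named after their values were seen. Promoter windows come from RefSeq, and those on chromosome 18, which carries Hdac3, were left out.

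Both groups carry replicate numbers 1 to 5. Deviations from group means correlated between same-numbered lungs at 0.319, 0.154, 0.183, 0.485 and 0.360, each above 0.1, the mark chosen here. The numbers therefore served as a block in an alternative fit and to describe same-numbered differences. The main fit and the exact permutation tests did not pair lungs. Differently numbered lungs had a median of -0.083 but reached 0.330, above the same-numbered values of 0.319, 0.154 and 0.183. Knockouts 1 and 2 and control 2 did not correlate best with their own number. Any pairing rests on the values, since the labels give none, so these correlations cannot decide whether the lungs are paired. Whether the number sets account for them was not tested. Alternatives were quantile normalization, filters and a floor on low values, all probe sets or their mean, another prior, array weights, the block, the number sets and leaving out each lung.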

Additional observations from a re-analysis of the deposited data

Results flagged for a closer look

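In 22 groups of 5 lungs (11 genes, knockout and control) 2 held a lung far from the others by Dixon's test at its 95% critical value, where chance gives about 1 in 20 groups. Both were knockout 4. For Hdac6 it stood at 7.97, with the next knockout lung at 8.16, and without it the log2 change was 0.05 (limma adjusted p = 0.847). For Hdac9 it stood at 7.51, with the next knockout lung at 7.86, and without it the log2 change was 0.18 (adjusted p = 0.537).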

How the results depend on the processing

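Over 207 recomputed member changes, 197 kept their direction and 3 were called. Hdac8 was called with values floored at the 20th percentile (-0.09, adjusted p = 0.0224), with SE 0.015 in place of 0.039. That floor of 6.11 changed no Hdac8 value, so the call came from floored values of other genes, towards whose variances limma draws. Hdac11 was called with quantile normalization (-0.22) or without knockout 2 (-0.24). The count of called members was thus 1 in each of these 3 settings, 0 to 1 without a single lung, and 0 in the others, the replicate block included. Signs turned for Hdac2 with only numbers 1 to 3 (-0.014) and without a single lung (-0.025 to 0.036), for Hdac6 with quantile normalization (-0.00036) and without a single lung (-0.033 to 0.063), and, without knockouts 1 and 5 and control 1 together, for Hdac2 (-0.0080) and Hdac6 (-0.068); both genes lie near 0. Of all genes 846 were called with the replicate block, 910 with numbers 1 to 3 against 4 and 5 as a block, 2 with only numbers 4 and 5 (fewer lungs), and 393 to 699 without a single lung. Over the 11 lists, calls of higher genes numbered 2, 7 with the replicate block and 1 to 5 without a single lung; calls of lower genes numbered 0, 1 with quantile normalization, 2 with floored values, 3 with the replicate block and 0 to 1 without a single lung. List counts were made in these settings alone; Sox2 was also called lower with array weights (0.0165), with numbers 1 to 3 against 4 and 5 as a block (0.00248) and with only numbers 1 to 3 (0.00733). The replicate block changed no call of a member. With only genes above the median level Hdac9, Hdac10 and Hdac11 had no value. Relative to Hdac3, 9 genes were called in every setting run, and Hdac11 also with the mean of its probe sets (0.20, adjusted p = 0.0333). The Hdac3 call was lost with only numbers 1 to 3 (adjusted p = 0.0629), with only numbers 4 and 5 (0.421), without control 2 (0.0526) or control 5 (0.0545), and without knockouts 1 and 5 and control 1 together (0.130).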
